A study of Mus musculus with 262 samples.

Results

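The aquaporins are the family of membrane channels through which water, and for some members glycerol and other small solutes, crosses cell membranes. Here 10 mouse members were followed, Aqp1, Aqp2, Aqp3, Aqp4, Aqp5, Aqp6, Aqp7, Aqp8, Aqp9 and Aqp11. They are among 47069 genes in the tables of single cells, tubules and cells sorted on c-Kit or DBA, and 24111 genes in that of GFP-sorted cells. They were taken by symbol and identifier, without regard to their level, and all 10 are present in every table. Of the 262 samples, 235 are single cells, 19 are microdissected tubules and 8 are bulk samples of sorted cells.

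All samples came from kidneys of male mice 2 months old, and no treatment is given for any of them. The single cells were from C57BL/6 mice, had been sorted with DBA, c-Kit, both of these or PNA, and were captured one per chamber of a microfluidic chip. By the authors' naming, 74 are principal cells, 87 are intercalated cells of type A and 23 of type B, 19 are from the proximal tubule and 32 are non-epithelial. Each held between 1092 and 4307 genes at 1 TPM or more. The bulk samples were 2 fractions sorted on c-Kit and 2 sorted on DBA, both from C57BL/6 mice, and 2 GFP-positive and 2 GFP-negative fractions sorted by fluorescence from the strain Atp6v1b1GFP. Atp6v1b1 encodes a subunit of the proton pump of intercalated cells, and DBA is a lectin that binds collecting duct cells. The tubules, dissected by hand from C57BL/6 mice, were 11 pieces of cortical collecting duct (CCD) and 8 of the cortical part of the thick ascending limb (cTAL). No source says whether replicates came from separate animals, so p-values measure the spread between these samples only.

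Water leaves the collecting duct through 2 membranes in series in the principal cell. Aqp2 is the channel of the apical membrane and is stored in vesicles that move to the surface when vasopressin, acting through its V2 receptor (Avpr2) and cyclic AMP, signals water shortage. Aqp3 and Aqp4 are the basolateral exit channels, and Aqp3 also carries glycerol. Aqp6 lies in intracellular vesicles of type A intercalated cells, Aqp1 in the proximal tubule and thin descending limb, and Aqp7, another glycerol carrier, in the straight proximal tubule. Aqp11 lies in the endoplasmic reticulum and Aqp8 in intracellular membranes. Aqp5 is best known from secretory glands and Aqp9 from the liver.

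Aqp2, Aqp5 and Aqp6 are neighbours in the genome. In the GENCODE M21 annotation of GRCm38, Aqp2 lies on the plus strand at chr15:99579055-99584547, Aqp5 at chr15:99590782-99594829 and Aqp6 at chr15:99601400-99605477, and no other annotated gene starts or ends in this stretch of 26423 bases. Aqp3 and Aqp7 are also near each other, on the minus strand at chr4:41092722-41098183 and chr4:41033074-41048139. The others lie apart: Aqp1 at chr6:55336432-55348555, Aqp8 at chr7:123462291-123468004, Aqp11 at chr7:97724006-97738289 and Aqp9 at chr9:71110659-71168682. Aqp4 overlaps 1 antisense gene, and Aqp9 overlaps an antisense gene and a pseudogene. The counting is not stated to use strand, so reads of Aqp4 and Aqp9 cannot be told apart from reads of those overlapping genes.

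The coding sequences of the chromosome 15 members are the most alike in the family. Aqp2 matched Aqp5 at 69.9% and Aqp6 at 67.8% of aligned bases, and Aqp5 matched Aqp6 at 67.4%, while the other pairs ran from 57.8% to 65.1%. The stretch below is the window of 60 coding bases in which these 3 genes share most letters (GENCODE transcripts, bases 499 to 558 of the Aqp2 coding sequence), and capitals mark the 48 bases that all 3 have in common. It is shown because the levels of these neighbours differ by cell type, so that a reader can see how far apart their transcripts are. Over their whole transcripts no stretch of 31 bases was shared by any pair of the 10 members.
Aqp2: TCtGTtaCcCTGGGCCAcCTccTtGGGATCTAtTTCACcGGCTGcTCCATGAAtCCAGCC
Aqp5: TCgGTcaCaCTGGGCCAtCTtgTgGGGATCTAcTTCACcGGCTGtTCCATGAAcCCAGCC
Aqp6: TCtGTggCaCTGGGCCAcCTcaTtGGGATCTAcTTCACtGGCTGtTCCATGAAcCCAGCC

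The next sequences are the 250 bases before the RefSeq start of the apical channel of principal cells, its basolateral partner and Aqp6 (RefSeq, GRCm38.p6). They lie at chr15:99578806-99579055 on the plus strand for Aqp2, at chr4:41098184-41098433 on the minus strand for Aqp3 and at chr15:99600950-99601199 on the plus strand for Aqp6. Capitals mark matches on either strand to 6 motifs, whose letters are given with the results: the cyclic AMP response element, its half-site (part of the former), the GATA, ETS and forkhead motifs and the TATA box.
Aqp2: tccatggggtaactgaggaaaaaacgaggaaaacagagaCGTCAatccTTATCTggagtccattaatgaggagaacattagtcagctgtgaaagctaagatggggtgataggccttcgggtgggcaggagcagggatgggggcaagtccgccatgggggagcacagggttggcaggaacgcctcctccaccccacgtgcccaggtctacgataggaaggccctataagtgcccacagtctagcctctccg
Aqp3: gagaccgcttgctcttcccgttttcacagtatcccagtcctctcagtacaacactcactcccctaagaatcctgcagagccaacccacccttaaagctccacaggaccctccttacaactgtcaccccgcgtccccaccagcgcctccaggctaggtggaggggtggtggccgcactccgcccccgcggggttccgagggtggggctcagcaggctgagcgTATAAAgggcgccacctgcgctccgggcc
Aqp6: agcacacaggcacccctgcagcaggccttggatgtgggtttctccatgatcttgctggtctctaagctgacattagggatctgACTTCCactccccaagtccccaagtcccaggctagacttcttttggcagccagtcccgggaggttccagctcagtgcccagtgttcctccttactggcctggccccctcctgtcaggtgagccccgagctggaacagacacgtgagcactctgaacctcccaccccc
The Aqp2 window held the half-site of the cyclic AMP response element, with the letters TGACG, 211 to 207 bases before the start, and a match to the motif of GATA factors, searched as AGATAA, 202 to 197 bases before it, both on the opposite strand. Of 32851 RefSeq promoter windows of this length, 17.8% hold that half-site and 9.99% the GATA motif. The Aqp3 window held a TATA box, searched as TATAAA, 29 to 24 bases before its start, a motif found in 12.4% of windows. The Aqp6 window held a match to the motif of ETS factors, searched as GGAAGT, 167 to 162 bases before its start on the opposite strand, a motif in 19.7% of windows. The full response element TGACGTCA is in 1.55% of windows and in none of these 3. The motif of forkhead factors, searched as TGTTTA, is in 12.0% of windows and in none of these 3. The same search of the other members except Aqp4, which had no window, matched the GATA motif for Aqp7 and the ETS motif for Aqp5. The RefSeq start used for Aqp6 lies before its GENCODE start at base 99601400. These are matches of letters and no binding was measured.

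In single cells, Aqp2 was highest in principal cells. No animal is named for any cell, so each type counts as 1 sample, no difference between types was tested, and values are in TPM, which is scaled to gene length and to a fixed total per cell. Aqp2 was at 65.1 TPM in the lowest principal cell, 1821 TPM in the median cell and 6633 TPM in the highest, and at least 1 TPM in 74 of 74 (exact Clopper-Pearson 95% interval 95.1% to 100%, counting error only). Its mean of 2142 TPM ranked 37th among all genes. Type A cells had a median of 2.81 TPM and a highest cell of 636 TPM, with 58 of 87 at 1 TPM or more, and type B cells a median of 0 and a highest cell of 52.8 TPM, with 3 of 23. The ranges overlap: 18 type A cells and no type B cell reached the lowest principal cell. No type A cell reached the lower quartile of principal cells, 843 TPM.

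Aqp3 followed Aqp2 in principal cells but, unlike it, was also present in most intercalated cells of both types. Principal cells ran from 5.40 TPM through a median of 1303 TPM to 10148 TPM, with 74 of 74 at 1 TPM or more. Type A cells had a median of 46.3 TPM and a highest cell of 1192 TPM, and 85 of 87 reached 1 TPM (97.7%, interval 91.9% to 99.7%). In type B cells the values divided into high and low cells with none between 1 and 10 TPM: 15 of 23 cells had 10 TPM or more and the other 8 had less than 1 TPM. The type B median was 137 TPM, above that of type A, and the highest type B cell had 1301 TPM, within the principal cell range.

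Aqp3 without Aqp2 was most frequent in type B cells but was also found in type A cells. Of the 15 type B cells with at least 10 TPM of Aqp3, 12 had less than 1 TPM of Aqp2 and 11 were listed at 0. Among the 70 such type A cells 21 had less than 1 TPM of Aqp2, and among the 72 such principal cells none did. The type A cells were not alike in this. Of the 43 with the lower running numbers, described below, 35 had at least 10 TPM of Aqp3 but only 15 had at least 1 TPM of Aqp2. The mean of Aqp3 was 0.780 times that of Aqp2 in principal cells, 3.03 times in type A cells and 99.0 times in type B cells. Aqp2 was the higher of the pair in 45 of 74 principal, 20 of 87 type A and 1 of 23 type B cells. Fxyd4, a subunit of the sodium pump of principal cells, reached 1 TPM in 4 of 23 type B cells and averaged 69.6 TPM there, against 5518 TPM in principal cells.

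**Figure D1:**
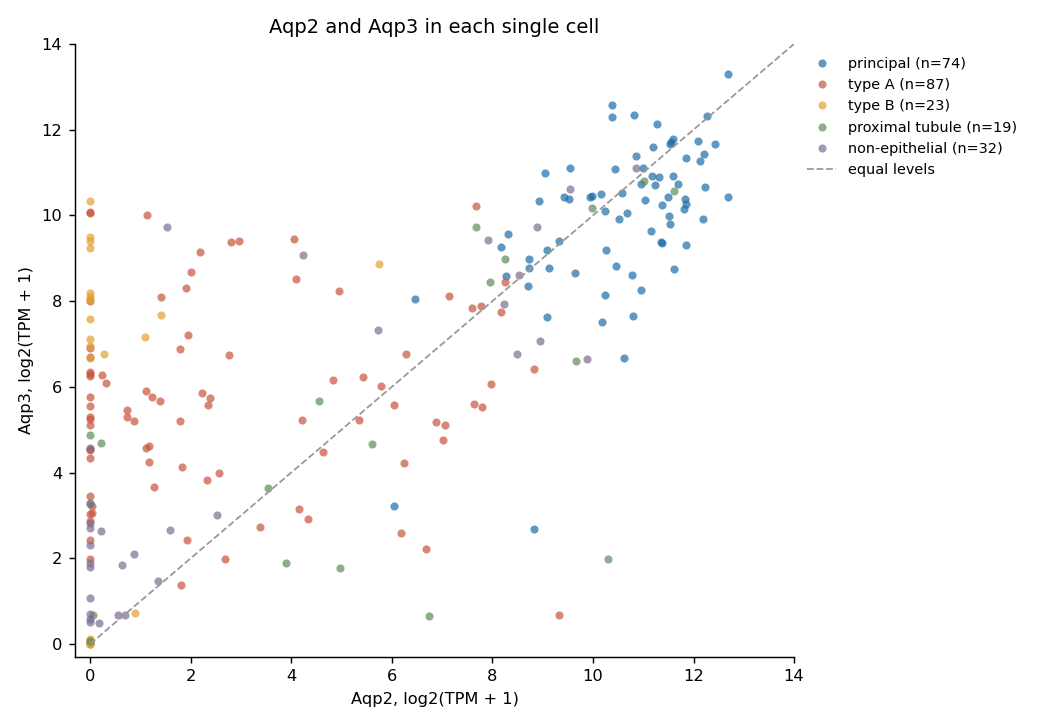
Each point is 1 single cell, with Aqp2 on the horizontal and Aqp3 on the vertical axis, both as log2(TPM + 1), coloured by the authors' cell type, and the dashed line marks equal levels. Principal cells lie at the upper right, type A cells spread mostly above the line, and 11 type B cells lie on the left edge with Aqp3 of at least 10 TPM and Aqp2 at 0.

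The columns of the single-cell table carry running numbers within each type, and some of these levels differed along them. What the number stands for is not given. In the lower-numbered 43 type A cells 15 had at least 1 TPM of Aqp2 and the median was 0, while in the higher-numbered 44 cells 43 did and the median was 16.5 TPM. Fxyd4 moved with it, at 1 TPM or more in 18 of 43 and 44 of 44 cells. Aqp3 and Aqp6 did not divide in this way, with 42 of 43 and 43 of 44 cells for Aqp3 and 37 of 43 and 35 of 44 for Aqp6. In type B cells Aqp3 reached 10 TPM in 10 of the lower-numbered 11 and 5 of the higher-numbered 12. The part that the running number has in these levels was not tested.

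Aqp4, the second basolateral channel, was found in a minority of principal cells. It reached 1 TPM in 28 of 74 (37.8%, interval 26.8% to 49.9%), with a median of 0.045 TPM, a mean of 41.2 TPM and a highest cell of 665 TPM. The 6 cells highest in Aqp4 were all principal cells. The first 4 had at least 1985 TPM of Aqp2 and 1019.8 TPM of Aqp3, the fifth had 1160 and 182 TPM beside a proximal tubule marker sum of 2213 TPM, and the sixth had 488 and 1301 TPM. Elsewhere it reached 1 TPM in 5 of 87 type A, 1 of 23 type B, 2 of 19 proximal tubule and 3 of 32 non-epithelial cells. Across principal cells the correlation of Aqp2 on log2(TPM + 1) was 0.58 with Aqp3 and 0.33 with Aqp4 (n = 74), given as descriptions of cells that share a table.

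Aqp6 was highest in type A cells. Its values there ran from 0 through a median of 55.4 TPM to 780 TPM, with a mean of 121 TPM, and 72 of 87 cells reached 1 TPM (82.8%, interval 73.2% to 90.0%). In principal cells the median was 0.035 TPM and 15 of 74 reached 1 TPM, in type B cells 0.02 TPM and 2 of 23, and in proximal tubule cells 0.12 TPM and 3 of 19. Non-epithelial cells had a median of 0.475 TPM, and 13 of 32 reached 1 TPM. Aqp6 was above Aqp3 in 37 of 87 type A cells and in no principal cell, and the type A mean of Aqp3 was the higher, at 148 TPM. The 7 principal cells with 10 TPM or more of Aqp6 were all in the higher-numbered 37, where 13 cells also had 10 TPM or more of Slc4a1, the chloride-bicarbonate exchanger of type A cells. In the lower-numbered 37 principal cells no cell reached 10 TPM of either gene. The part of such mixed profiles in the principal cell level of Aqp6 was not tested.

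**Figure D2:**
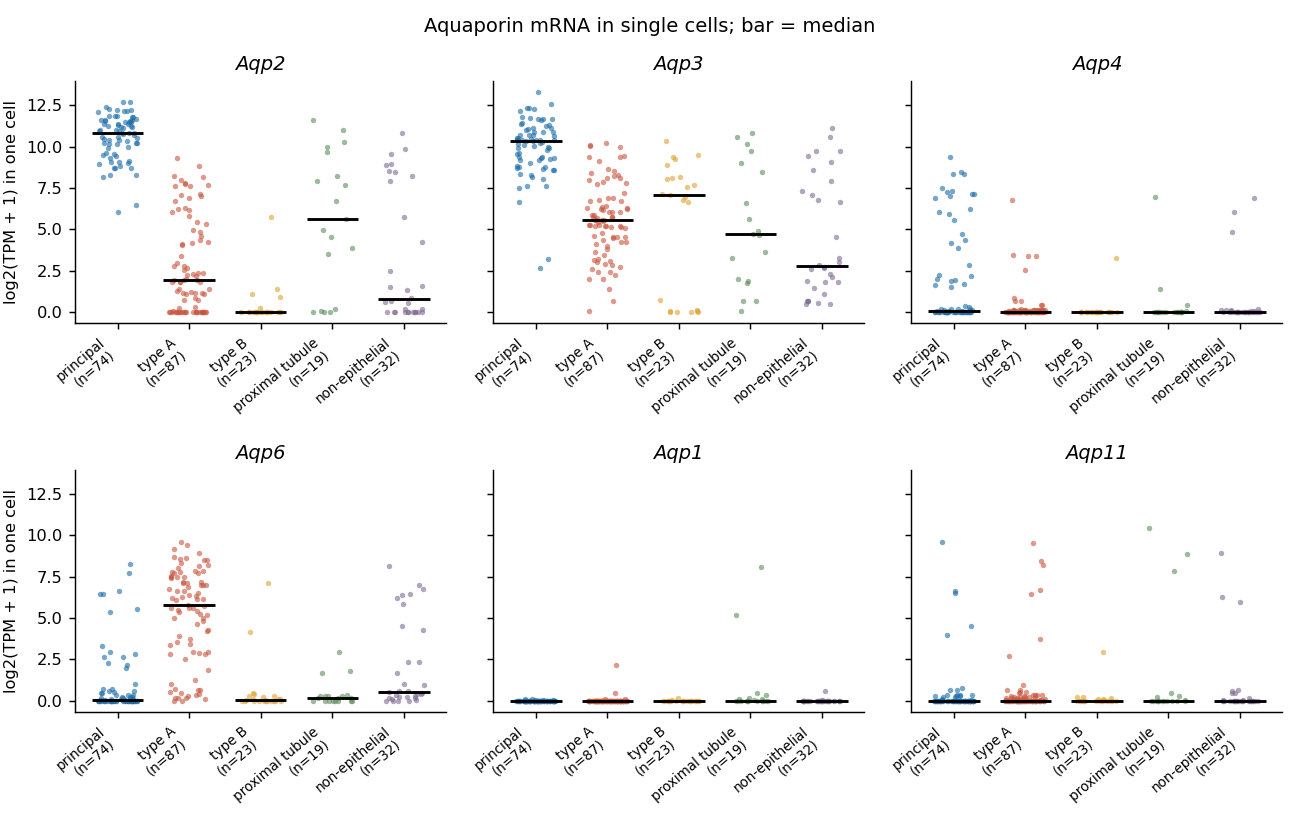
Each panel shows 1 aquaporin as log2(TPM + 1) in single cells of the 5 types, with 1 point per cell and a bar at the median. The medians of Aqp2 and Aqp3 stand highest in principal cells (1821 and 1303 TPM) and that of Aqp6 in type A cells (55.4 TPM), while Aqp4, Aqp1 and Aqp11 have medians at or near 0 in all types and single cells above.

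The channels of the proximal tubule were sparse in single cells. Aqp1 reached 1 TPM in 2 of 19 proximal tubule cells, at 269 and 35.7 TPM, although all 7 proximal tubule markers had their highest mean in this type and Slc34a1, the phosphate transporter of the brush border, reached 1 TPM in 18 of 19. Only 1 other cell of the 235 reached 1 TPM of Aqp1, a type A cell at 3.49 TPM. Aqp7 reached 1 TPM in 4 of 19 proximal tubule cells, 1 principal cell and 1 non-epithelial cell, and its highest value was 76.6 TPM. The principal cell in question, with 48.6 TPM of Aqp7, also had 237 TPM of Slc34a1 and 1160 TPM of Aqp2.

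Aqp2 and Aqp3 were also found in cells named proximal tubule or non-epithelial. Aqp2 had a median of 47.7 TPM and a highest cell of 3113 TPM in proximal tubule cells, where 14 of 19 reached 1 TPM, and a median of 0.715 TPM and a highest cell of 1858 TPM in non-epithelial cells, where 15 of 32 did. Aqp3 reached 1 TPM in 16 of 19 and 26 of 32 of these cells. Principal cell markers moved with Aqp2: the summed TPM of 6 markers ran from 0.23 to 7817 in proximal tubule cells and from 0.22 to 9142 in non-epithelial cells, and its rank correlation with Aqp2 was 0.861 (n = 19) and 0.636 (n = 32), given as descriptions. An exception was the cell with the most Aqp1, which had 1253 TPM of Aqp2 but 2.92 TPM of Aqp3 and a principal marker sum of 8.25. The part of principal cell RNA in these levels was not tested.

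Aqp11, like Aqp4, was at or near 0 in most cells of every type, with a few high cells. It reached 1 TPM in 5 principal, 7 type A, 1 type B, 3 proximal tubule and 3 non-epithelial cells, and the highest values were 1411 TPM in a proximal tubule cell, 788 TPM in a principal cell, 734 TPM in a type A cell and 488 TPM in a non-epithelial cell. Medians were 0 in every type. Aqp5 did not exceed 0.70 TPM in any cell, and Aqp8 and Aqp9 were listed at 0 in all 235 cells, which allows a share of cells with a listed value of up to 1.56% (exact 95% limit). Depth is unknown for these libraries, so this does not bound the share of cells that express the genes.

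Genes whose levels followed an aquaporin across all 235 cells were named where r on log2(TPM + 1) was at least 0.5 among 7279 genes searched. For Aqp2 they were Fxyd4 (r = 0.89), Apela (r = 0.87), which encodes a peptide ligand of the apelin receptor, and Hsd11b2 (r = 0.83), the enzyme that protects the mineralocorticoid receptor from cortisol-like steroids. For Aqp3 they were Fxyd4 (r = 0.72), Apela (r = 0.69) and Aqp2 itself (r = 0.69). For Aqp6 they were Mme (r = 0.77), a membrane peptidase gene, Slc4a1 (r = 0.73) and Kit (r = 0.69). For Aqp1 the list of Gm38080 (r = 0.76), Cyp4a12b (r = 0.64) and Gm13528 (r = 0.56) rests on the 3 cells with at least 1 TPM. No gene reached 0.5 for Aqp4, where Btc was nearest (r = 0.48), or for Aqp11 (highest r = 0.26). These correlations run over cells of different types in 1 table and carry no p-value.

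The principal cell channels were lower and Aqp6 higher in the fraction sorted on c-Kit than in that sorted on DBA. c-Kit is the receptor encoded by Kit, whose mean over single cells was highest in type A cells. It is 1 of 3 type A markers, whose sum reached 333 TPM in the highest type B cell. Fewer cells of a type and less RNA per cell cannot be told apart in these and the following bulk samples. limma on log2(TPM + 1) called 44.3% of 14341 genes at an adjusted p under 0.05, with 2315 up and 4033 down in the c-Kit samples. The median difference over all genes was -0.11. Quantile normalization moved that median to 0.02 and the calls to 3055 higher and 3072 lower. Of the 10 aquaporins, 7 passed the filter of a mean of at least 1 TPM, and 6 were called: Aqp6 higher (16.1% of all genes were), and Aqp2, Aqp3, Aqp4, Aqp7 and Aqp11 lower (28.1% were). Their median difference was -1.06 over the 7 tested.

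Aqp2 had 1526 and 1082 TPM in the c-Kit fractions and 13651 and 11545 TPM in the DBA fractions. The DBA mean was 9.66 times the c-Kit mean, the groups did not overlap, and Aqp2 was the gene with the second highest mean of all genes in the DBA fraction. On the log2(TPM + 1) scale the difference was -3.29 (SE 0.17, adjusted p = 2.31e-05, limma, n = 2 per group). Aqp3 had 748 and 591 TPM against 3321 and 2936 TPM, a smaller difference of -2.23 (SE 0.12, adjusted p = 3.08e-05). The ratio of Aqp2 to Aqp3 was therefore lower in both c-Kit fractions (2.04 and 1.83) than in both DBA fractions (4.11 and 3.93), a difference that was not tested. Aqp4 had 7.72 and 4.82 TPM against 88.5 and 79.3 TPM (difference -3.57, SE 0.19, adjusted p = 2.93e-05).

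Aqp6 went the other way, with 273 and 301 TPM in the c-Kit and 6.22 and 9.94 TPM in the DBA fractions. Its mean was 35.5 times higher with c-Kit, and the difference was 5.02 (SE 0.19, adjusted p = 8.29e-06, limma). All 3 type A markers, all 3 type B markers (summed 636 to 671 against 104 to 124 TPM) and all 4 markers shared by intercalated cells (4361 to 4941 against 325 to 338 TPM) were also called higher, and their part in the level of Aqp6 was not tested. The c-Kit fractions nevertheless held more Aqp2 than Aqp6, in TPM, beside a summed principal marker level of 1321 to 1671 TPM, against 9495 to 9709 TPM with DBA.

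The proximal tubule channels differed less between these fractions. Aqp1 had 37.0 and 55.2 TPM in the c-Kit and 49.1 and 65.3 TPM in the DBA fractions, ranges that overlap (difference -0.32, adjusted p = 0.252, limma), and it was called, at an adjusted p of 0.0225, only with the replicate number as a block. Aqp7 had 3.37 and 3.09 against 7.69 and 7.90 TPM (difference -1.06, SE 0.16, adjusted p = 0.00212). Aqp11 had 18.8 and 15.6 against 22.8 and 30.3 TPM (difference -0.59, SE 0.16, adjusted p = 0.0251). The call of Aqp11 was lost under 6 of the 11 alternatives, among them each that left out c-Kit replicate 1, c-Kit replicate 2 or DBA replicate 2. Summed markers of the proximal tubule moved the same way, at 2650 to 2921 TPM with c-Kit and 4289 to 4643 TPM with DBA. Of these 7 markers, 5 were called lower with c-Kit. Slc22a6 was higher there (106 and 105 against 80.6 and 98.9 TPM), and Miox overlapped (1364 and 1256 against 1278 and 1532 TPM). All 5 immune markers were called lower, their sums at 3748 to 3979 and 12275 to 12800 TPM. Their part in the differences was not tested. Aqp5 and Aqp8 stayed under 0.50 TPM in all 4 samples, and Aqp9 was at 0.14 TPM in 1 DBA fraction and at 0 in the rest.

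GFP-positive cells of the Atp6v1b1GFP strain had more Aqp2, Aqp3 and Aqp6 and less Aqp1, Aqp7 and Aqp11 than GFP-negative cells. These values are read counts scaled to library size (CPM), which are not scaled to gene length, and the samples held 35530885 to 40815091 reads in genes. edgeR's quasi-likelihood test called 32.6% of 15671 genes, and of the 9 aquaporins that passed its filter 8 were, 4 in each direction (15.2% of all genes were higher and 17.3% lower). The median difference was 0.30 over the 9 and 0.02 over all genes. Aqp5 and Aqp8 are among the 8, but each passed the filter only through the fraction that held its reads, so its direction was fixed beforehand. A filter of a mean of at least 50 counts, which drops both, left 6 aquaporins called, beside 36.3% of all genes.

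Aqp6 had 1076 and 3705 CPM in the GFP-positive and 32.2 and 21.3 CPM in the GFP-negative fractions, a mean 89.3 times higher. The log2 difference was 6.48 (SE 0.61, adjusted p = 0.00012, edgeR). GFP-positive replicate 2 was the higher sample, and Slc4a1 was also higher in it (1632 and 3260 CPM). The log2 difference of Aqp6 was 5.33 without that replicate and 7.08 without GFP-positive replicate 1, and it stayed called. On the RPKM scale, which is per gene length, Aqp6 made up 70.2% of the summed aquaporin level of the GFP-positive fractions.

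Aqp2 had 155 and 317 CPM in GFP-positive and 52.9 and 49.1 CPM in GFP-negative cells (log2 difference 2.21, SE 0.31, adjusted p = 0.000909, edgeR). Aqp3 had 100.3 and 185 against 30.9 and 36.2 CPM (2.09, SE 0.28, adjusted p = 0.00076). Neither pair of groups overlapped, and in both genes replicate 2 was the higher GFP-positive sample, without which the log2 difference of Aqp2 was 1.61. All 6 principal cell markers were also called higher, their sum running from 1495 to 1776 CPM in GFP-positive and from 397 to 475 CPM in GFP-negative samples, as were all 5 markers of the distal convoluted and connecting tubule (2608 to 3666 against 152 to 202 CPM). The part of these cells in the levels of Aqp2 and Aqp3 was not tested. Aqp4 had 353 and 510 CPM in GFP-positive and 282 and 418 CPM in GFP-negative cells, which overlap, and it was not called (0.30, SE 0.25, adjusted p = 0.394).

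Aqp1 was the channel with the highest RPKM in GFP-negative cells, at 60.1% of the summed aquaporin level. It had 706 and 907 CPM there and 183 and 147 CPM in GFP-positive cells (log2 difference -2.29, SE 0.22, adjusted p = 0.00012, edgeR). Aqp7 (26.9 and 41.4 against 4.08 and 3.77 CPM, difference -3.12) and Aqp11 (28.5 and 40.9 against 5.91 and 5.33 CPM, difference -2.62) fell with it, and so did all 7 proximal tubule markers, whose sum ran from 16123 to 17270 CPM in GFP-negative and from 1990 to 3062 CPM in GFP-positive cells. All 4 endothelial markers (sums of 108 to 287 against 26.4 to 49.3 CPM) and all 4 immune markers tested (316 to 682 against 59.5 to 63.9 CPM) were called lower as well. The part of any of these cells in the levels of Aqp1, Aqp7 and Aqp11 was not tested.

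Aqp5 and Aqp8 were each counted in 1 of the 2 fractions only. Aqp5 had 56 and 65 reads in GFP-positive and 0 in both GFP-negative samples, at least 20.4-fold higher with a floor of 3 counts per library. Aqp8 had 49 and 39 reads in GFP-negative and 0 in both GFP-positive samples, at least 14.3-fold lower in the latter. Their p-values are not given, since each gene passed the filter only through the fraction that held its reads. The deposited RPKM values do not bear these counts out: Aqp5 was listed at 0 and 1.62 RPKM in the GFP-positive and at 0 and 0.188 RPKM in the GFP-negative samples, and Aqp8 at 0 in all 4. Aqp9 had 20 reads in 1 GFP-negative sample and 0 in the others and was not tested.

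**Figure D3:**
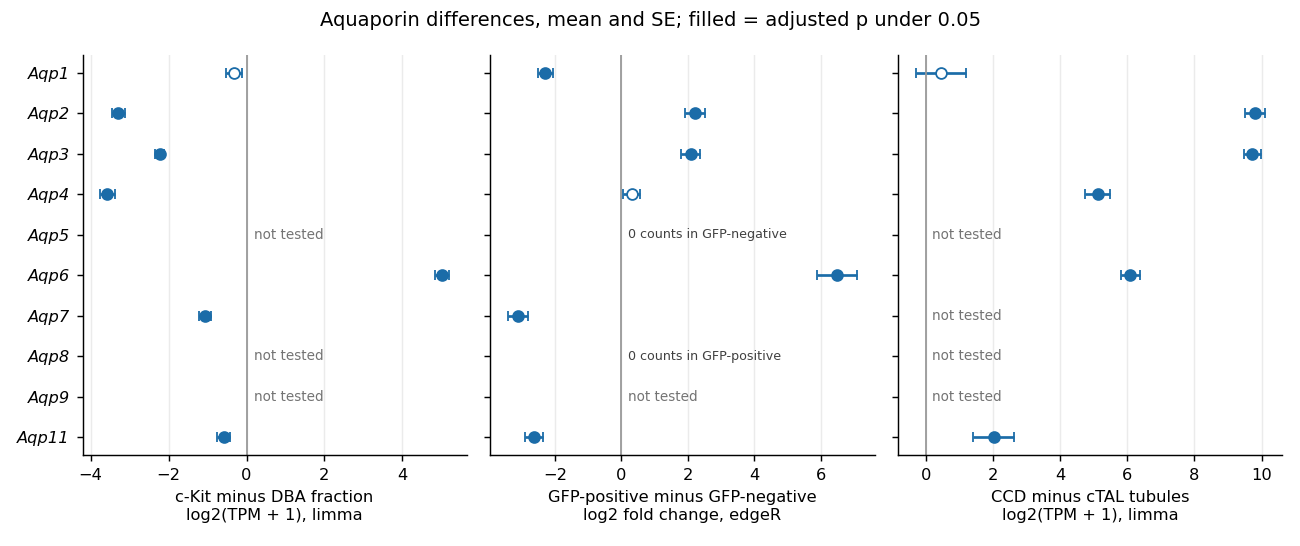
Points give the difference of each aquaporin between fractions or tubules with its standard error, from limma on log2(TPM + 1) at left and right and from edgeR in the middle, and filled points passed an adjusted p of 0.05. Aqp2 and Aqp3 lie left of 0 in the c-Kit and DBA comparison and right of 0 in the others, while Aqp6 lies right of 0 in all 3 (5.02, 6.48 and 6.10), and Aqp5 and Aqp8 have no GFP point because 1 group had 0 counts.

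Microdissected tubules set the collecting duct against a segment that does not take up water, the thick ascending limb. The 4 collecting duct channels Aqp2, Aqp3, Aqp4 and Aqp6 were higher in each of 11 CCDs than in any of 8 cTALs. The share of all genes that separate the tubules in this way was not computed, so this count has no background. limma called 18.7% of 13520 genes, with 1782 up (13.2%) and 744 down (5.5%) in CCDs and a median difference of 0.31 over all genes. Quantile normalization moved that median to -0.03 and the calls to 1221 higher and 1244 lower. Of the 6 aquaporins that passed the filter, 5 were called, all higher in CCDs also after quantile normalization, with a median difference of 5.61 over the 6. Aqp4 and Aqp6 are among the 5, but they were under 1 TPM in every cTAL and passed the filter only through the CCDs. They could thus only be called higher, and the count and the median depend in part on the filter. The tubule columns carry an m number from 1 to 7, which may mark an animal and is not explained, so tubules that share it may not be independent and p may be too small.

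Aqp2 had the highest mean of all genes in CCDs. It ran from 10200 TPM through a median of 13951 TPM to 22096 TPM in CCDs and from 3.88 TPM through 19.5 TPM to 35.2 TPM in cTALs. The mean was 802 times higher in CCDs, and on the log2(TPM + 1) scale the difference was 9.80 (SE 0.30, adjusted p = 3.29e-17, limma). Aqp3 ran from 1693 through 3282 to 4014 TPM against 0.77 through 2.04 to 6.96 TPM, a difference of 9.73 (SE 0.26, adjusted p = 2e-18). Aqp2 was above Aqp3 in 11 of 11 CCDs, by 3.35 to 6.93 times, unlike in single principal cells, where their means were close. These tables were normalized separately and were not tested against each other.

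Aqp6 and Aqp4 followed at lower levels. Aqp6 ran from 40.0 through 77.2 to 136 TPM in CCDs and from 0.03 through 0.085 to 0.82 TPM in cTALs (difference 6.10, SE 0.29). Aqp4 ran from 9.66 through 38.8 to 76.6 TPM against 0.01 through 0.025 to 0.18 TPM (difference 5.13, SE 0.37). Their limma p-values are not given, since both passed the filter only through the CCDs. In an exact two-sided permutation test of 75582 regroupings, which used no filter, Aqp2, Aqp3, Aqp4 and Aqp6 each gave p = 1.32e-05. This is the smallest p that the test can give (2.98e-05 adjusted over the 9 members tested). The low cTAL levels of Aqp2 and Aqp3 kept the order of the pair, Aqp2 being higher in 8 of 8 cTALs. Of the 6 principal cell markers, 5 were called higher in CCDs. Scnn1b and Scnn1g, with means of 0.854 and 0.501 TPM in cTALs, could only be called higher. Of the 6 markers, Fxyd4 averaged 19.6 TPM in cTALs and 8173 TPM in CCDs, and Hsd11b2 3.66 and 3901 TPM, while Kcnj1 averaged 921 and 1017 TPM. The part of collecting duct RNA in the cTAL levels of Aqp2 and Aqp3 was not tested.

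Aqp11 was the fifth member called, with wide spread. It ran from 0.02 through 8.27 to 18.3 TPM in CCDs and from 0 through 0.01 to 8.20 TPM in cTALs, ranges that overlap (difference 2.02, SE 0.62, adjusted p = 0.0234, limma). The call was lost with no filter (adjusted p = 0.0673) and with the m number as a fixed block (0.0578). Aqp1 did not differ detectably, at 0.34 through 3.76 to 43.7 TPM in CCDs and 0 through 3.10 to 28.3 TPM in cTALs (difference 0.46, SE 0.75, adjusted p = 0.732). The CCD with the most Aqp1, m4_CCD1, was also the tubule with the most Slc34a1 (330 TPM) and Aqp7 (6.06 TPM), but the CCD with the next most Slc34a1, m7_CCD2 at 92.0 TPM, had 0.45 TPM of Aqp1, and the cTAL with the most Aqp1, m3_cTAL1, had 3.12 TPM of Slc34a1. The part of proximal tubule RNA in these levels was not tested. Aqp7 reached 1 TPM in 3 CCDs and no cTAL, Aqp5 and Aqp9 in 1 CCD each, and Aqp8 was listed at 0 in all 19 tubules.

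**Figure D4:**
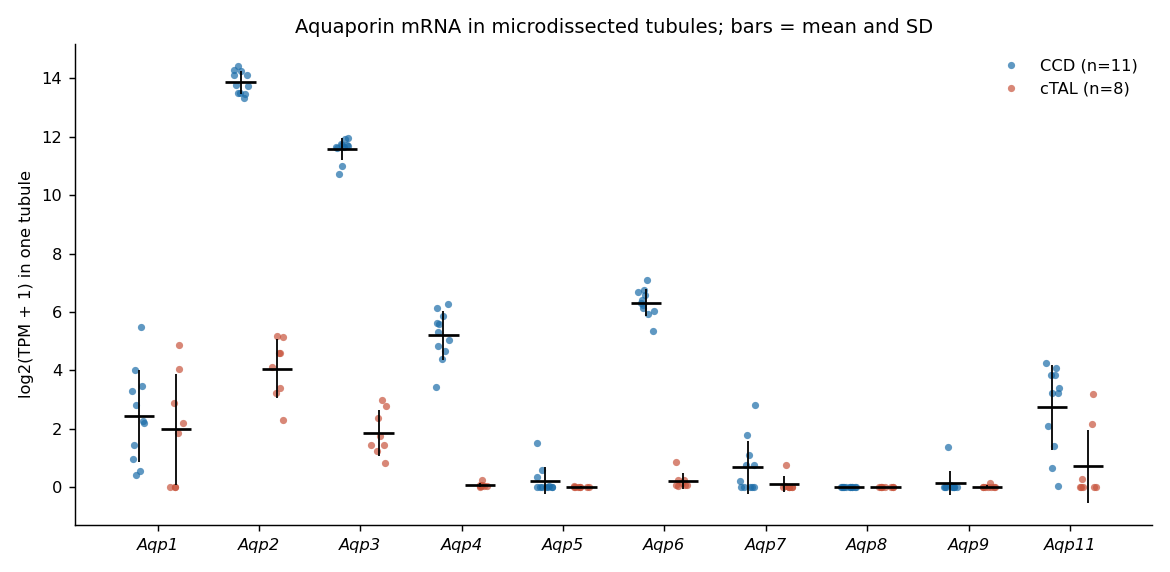
Points give log2(TPM + 1) of each aquaporin in 11 CCD and 8 cTAL tubules, with bars at the mean and SD. CCD and cTAL points do not overlap for Aqp2, Aqp3, Aqp4 and Aqp6, and they overlap for Aqp1 and Aqp11.

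Among the 11 CCDs, none of the 6 pairs of the 4 channels passed a test of correlation after adjustment. Of these pairs, Aqp3 with Aqp4 had the highest correlation of log2(TPM + 1) (Pearson r = 0.59, p = 0.0592, adjusted 0.309, Spearman rho = 0.07, p = 0.839, permutation tests), and it was -0.05 without the 2 tubules farthest from the median of Aqp3. Aqp2 with Aqp3 had r = 0.52 (p = 0.103, adjusted 0.309) and rho = 0.28 (p = 0.404, permutation tests), and r was 0.56 without the 2 farthest. Aqp3 with Aqp6 had r = 0.34 (p = 0.288) and rho = 0.65 (p = 0.0342, adjusted 0.205, permutation tests), with r = 0.33 without the 2 farthest. Aqp4 with Aqp6 had r = -0.16 (p = 0.645, adjusted 0.713) and rho = -0.14 (p = 0.693, permutation tests), and r was -0.78 without the 2 tubules farthest from the median of Aqp4, so its value rests on those tubules.

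The make-up of the family by level, in TPM or RPKM, changed from sample to sample type. Aqp2 and Aqp3 made up 55.2% and 43.0% of the summed mean level of the 10 members in principal cells, and 82.4% and 16.8% in CCDs. In type A cells Aqp3 made up 43.8%, Aqp6 35.7% and Aqp2 14.5%, and in type B cells Aqp3 alone made up 96.1%. The DBA fraction was closest to the CCDs, with 79.2% Aqp2, and the c-Kit fraction had 55.9% Aqp2, 28.7% Aqp3 and 12.3% Aqp6. These are shares of means with no test.

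**Figure D5:**
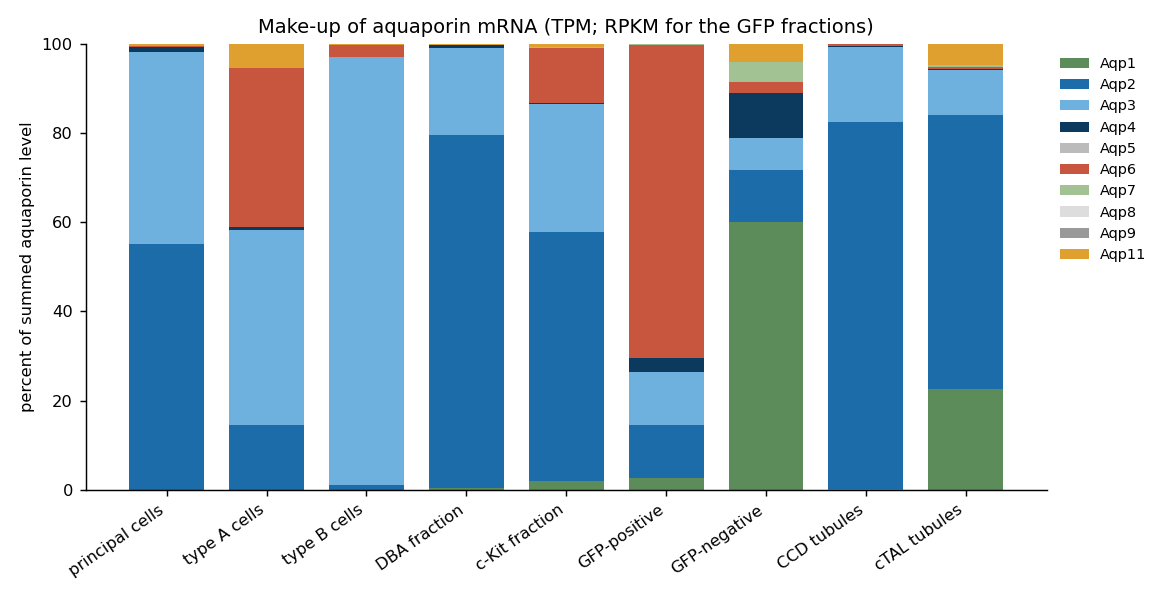
Stacked bars give the percent that each aquaporin contributes to the summed mean level of the 10 members, in TPM or, for the GFP fractions, in RPKM. Aqp2 is the largest share in principal cells, CCDs, cTALs and the DBA and c-Kit fractions, Aqp3 in type A and type B cells, Aqp6 in GFP-positive and Aqp1 in GFP-negative cells. The summed level of cTALs is only 31.2 TPM, and the part of collecting duct RNA in it was not tested.

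The receptor that acts on Aqp2 followed it in all 3 comparisons. Avpr2 had 99.1 and 82.5 TPM in the c-Kit and 738 and 679 TPM in the DBA fractions (difference -2.96, adjusted p = 5.34e-06, limma), 2.04 more on the log2 scale in GFP-positive cells (adjusted p = 0.00099, edgeR) and 4.59 more in CCDs (adjusted p = 6.24e-10, limma). Of the 13 genes from this receptor to cyclic AMP and its kinase, 4 of 13 tested were called between GFP fractions (2 higher, 2 lower), 7 of 12 between c-Kit and DBA (2 higher, 5 lower) and 2 of 10 between tubules, both higher in CCDs. Over all genes 32.6%, 44.3% and 18.7% were called in these comparisons, and the first and last of the list's shares are near that background. Adcy6, an adenylyl cyclase, was higher in GFP-positive cells (1.54), where Pde4d, a cyclic AMP phosphodiesterase, was lower (-1.61). Pde4d was also lower in the c-Kit fraction (-1.48), and Gnas, the stimulatory G protein, was higher there (0.59). List medians were 0.26, -0.19 and 0.40 in the 3 comparisons, beside 0.02, -0.11 and 0.31 over all genes.

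Genes of Aqp2 vesicle traffic and turnover were called at about the share of all genes (32.6%, 44.3% and 18.7% in the 3 comparisons). Of 25 tested, 7 were called between GFP fractions (4 higher, 3 lower), 11 between c-Kit and DBA (6 higher, 5 lower) and 6 between tubules (5 higher, 1 lower), with list medians of 0.08, -0.01 and 0.34, beside 0.02, -0.11 and 0.31 over all genes. Nedd4l, a ubiquitin ligase, was called higher in all 3 comparisons (1.83 in GFP-positive cells, 0.61 in the c-Kit fraction and 2.47 in CCDs). Vamp2, a vesicle SNARE, was 0.59 higher both with c-Kit and in CCDs. Anxa2, an annexin, was lower in the c-Kit fraction (-1.22), and Rab11fip2, an adaptor of recycling vesicles, was lower in CCDs (-1.56).

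The factors linked to Aqp2 transcription followed its direction in part. Of 8 tested, 7 were called between GFP fractions (6 higher, 1 lower), 7 between c-Kit and DBA (1 higher, 6 lower) and 5 between tubules (4 higher, 1 lower), with list medians of 1.76, -0.72 and 1.85. Over all genes 32.6%, 44.3% and 18.7% were called, with medians of 0.02, -0.11 and 0.31. Gata2 ran from 118 to 204 TPM in CCDs and from 0.02 to 1.11 TPM in cTALs (difference 6.90), and Gata3 rose with it (5.99). Gata2, Gata3 and Elf5 averaged 0.29, 0.16 and 0.025 TPM in cTALs and passed the filter only through the CCDs. They could thus only be called higher, and the tubule count and median depend in part on the filter. Elf5, an ETS factor, was lower in the c-Kit fraction (1.34 and 1.49 against 10.1 and 13.3 TPM, difference -2.38), as was Gata2 (-1.64). Tfcp2l1 was higher in GFP-positive cells (3.13) and also in the c-Kit fraction (0.25, adjusted p = 0.0156, limma), where Aqp2 was lower. Nr1h4, the bile acid receptor FXR, was lower in GFP-positive cells (-2.30) and in CCDs (-4.93), where Aqp2 was higher.

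Genes of glycerol metabolism, set beside the glycerol carriers Aqp3 and Aqp7, gave 3 calls of 4 tested between GFP fractions (1 higher, 2 lower), 3 of 5 between c-Kit and DBA (1 higher, 2 lower) and 1 of 5, lower, between tubules, with list medians of -0.44, -0.33 and 0.05. Over all genes 32.6%, 44.3% and 18.7% were called, with medians of 0.02, -0.11 and 0.31, and the tubule count is near that background. Gpd1, glycerol-3-phosphate dehydrogenase, was lower in GFP-positive cells (-1.58), and Gk, glycerol kinase, was lower in the c-Kit fraction (-0.69) and in CCDs (-1.94). Pnpla2, a triglyceride lipase, was higher in GFP-positive (0.69) and c-Kit-sorted cells (0.83). The other family genes listed, Mip, Aqp12, Aqp10 and Aqp10-ps, passed no filter and were not tested.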

How the data were processed

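No reads were processed here. The authors deposited TPM values for 235 single cells, 4 c-Kit and DBA fractions and 19 tubules, and read counts and RPKM values for 4 GFP fractions. HTSeq-count made the counts and RefSeq on mm10 was the annotation, as the names of the deposited files say. STAR 2.5.1b, RSEM 1.2.31, Seurat and GRCm38.p5 are named, without a role, per the submitters' processing notes. For tubules no source used here names a unit, and TPM was read from the column sums. The deposited TPM tables keep no depth, and reads assigned to no feature (66.5% to 72.7% per GFP sample) stayed out of library sizes.

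Counts were compared with edgeR 4.0.16 (R 4.3.3, TMM, filterByExpr, quasi-likelihood F test). For TPM, limma 3.58.1 with a variance trend was fitted to log2(TPM + 1), keeping genes whose mean reached 1 TPM. A fold on this scale understates the change of low genes. P-values were adjusted by Benjamini-Hochberg over all genes tested, with calls under 0.05, and only the groups compared entered a fit. CPM were computed from the counts with TMM library sizes. The column names of the single-cell, tubule and RPKM tables show groups but not which sample, and the sort label of a single cell was not assigned. All 235 cells and the authors' cell types were kept, doublets were not called, as that needs counts, no 2 cell columns were identical, and 0 per-sample columns were left unused. Shares of cells have exact Clopper-Pearson intervals from scipy 1.17.1 in Python 3.11.15.

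The named genes are the 10 members, for each member that averaged 10 TPM in some cell type the 3 genes most correlated with it over all cells (r of at least 0.5, among genes averaging 10 TPM over all cells), and from each gene list the 2 called genes per direction with the largest difference, of which 1 is not reported here. The members and lists were chosen with earlier results of these data known. A planned comparison of the proteins was not run, and coding sequences were compared in its place. The fits were tested on simulated data with 200 changed genes. At a log2 change of 2 they recovered 109 of 109 genes between GFP fractions, 102 of 113 between c-Kit and DBA and 47 of 99 between tubules, and at a log2 change of 1 they recovered 77 of 91, 54 of 87 and 15 of 101. False calls were 2, 11 and 6. The GFP simulation gave all genes 1 fixed dispersion and changed only genes above a set level, while the others used each gene's own variance. Its rates cannot be set beside theirs and do not carry over to genes whose replicates vary more. Alternatives were DESeq2 1.42.0, RLE size factors, other filters and pseudocounts, RPKM, quantile normalization, no trend, array weights, replicate blocks and leaving out each sample.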

Additional observations from a re-analysis of the deposited data

Results flagged for a closer look

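In the 8 cTAL tubules, 5 of the 9 aquaporins with any value had a highest tubule that stood far from the rest by Dixon's criterion. For Aqp5 and Aqp9, at 0 in 7 of 8 cTALs, the criterion is met by construction, and Aqp7 is at 0 in 6 of 8, so the rate of about 1 group in 20 expected by chance bears on Aqp4 and Aqp6 only. The highest values were 0.18 TPM for Aqp4, 0.03 TPM for Aqp5, 0.82 TPM for Aqp6, 0.69 TPM for Aqp7 and 0.09 TPM for Aqp9. All lie under 1 TPM. The tubule m7_cTAL1 held the highest value of Aqp4, Aqp5 and Aqp7, and m6_cTAL1 that of Aqp6.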

How the results depend on the processing

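No aquaporin called in the report changed direction under any alternative run. For Aqp5 and Aqp8 between GFP fractions, and for Aqp4 and Aqp6 between tubules, only 1 direction was open in the main fit. With each tubule left out in turn the number of aquaporins called stayed at 5, beside 16.6% to 22.9% of all genes. With each sorted sample left out in turn, the difference of Aqp2 ran from 1.61 to 2.61 between GFP fractions and from -3.54 to -3.04 between c-Kit and DBA. That of Aqp6 ran from 5.33 to 7.08 and from 4.72 to 5.32. Calls over all genes between GFP fractions fell from 5101 to 1639 with limma on RPKM values, and ran from 3616 to 4211 with each sample left out. Between c-Kit and DBA they fell from 6348 to 3600 without DBA replicate 1 and to 3458 without DBA replicate 2, within a range of 3458 to 5701 over the 4 samples. Where 1 sample remained in a group, it was assumed to vary like the other group. Between tubules they rose from 2526 to 4401 with array weights, and ran from 2239 to 3078 with each tubule left out. The causes were not tested.

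The replicate numbers were not taken to pair the samples, although the RPKM columns name a first and a second experiment that each hold both GFP fractions. Deviations of same-numbered samples correlated at 0.139 between GFP fractions, at 0.0264 between c-Kit and DBA and at -0.0103 to 0.182 between tubules with the same m number. The replicate block gave 5897 calls between GFP fractions, 6271 between c-Kit and DBA and, with the m number as a fixed or a random block, 2588 or 2763 between tubules. Means per m number, chosen like both m number blocks after seeing the data, gave 1823.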
